A study of Mus musculus with 12 samples.

Results

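The enzymes that write, copy, guide and remove DNA methylation were examined in neuronal cultures made from mouse embryonic stem cells. The set comprised 9 listed genes: the methyltransferases Dnmt1, Dnmt3a and Dnmt3b, the cofactor Dnmt3l, the adaptor Uhrf1, the dioxygenases Tet1, Tet2 and Tet3, and the glycosylase Tdg. A gene was read from the probe sets that the array annotation assigns to that gene alone, and where there were several, from the probe set with the highest mean over all arrays. This gave values for 8 of the 9 genes, out of 19938 genes with such a probe set. All 4 probe sets for Tdg also carried the name of its pseudogene Tdg-ps2, so no value is given for Tdg. The 8 genes all lay above the dimmest 25% and were among the 14953 genes tested.

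Each of the 12 arrays measured a whole culture at day 16 of differentiation, with 3 biological replicates in each of 4 groups. All groups derive from D3, a line of mouse embryonic stem cells, and were passed through embryoid bodies, which are floating aggregates formed after withdrawal of the self-renewal factor LIF. The D3 group was unmodified, and siSCR carried a scrambled sequence as a non-targeting control. The siPRMT1 and siPRMT8 groups had knockdown of PRMT1 or PRMT8, enzymes that methylate arginine residues of proteins. Each modified group was a single line. The labels state neither whether a line was 1 clone nor whether each replicate was differentiated separately. The p-values therefore cover the spread among these cultures, which may be technical, and an effect of knockdown cannot be told apart from an effect of a line's history.

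In mammals the methylation of cytosines in CG dinucleotides is copied after replication by Dnmt1, which Uhrf1 brings to hemimethylated sites. Dnmt3a and Dnmt3b place new methyl groups, and Dnmt3l, which has no catalytic activity of its own, binds and stimulates them in germ cells and embryonic stem cells. The Tet enzymes oxidise 5-methylcytosine, and the glycosylase Tdg excises the more oxidised forms. Dnmt3b, Dnmt3l and Tet1 are known for high expression in pluripotent cells and decline on neural differentiation, whereas Dnmt3a and Tet3 persist in neurons.

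The promoters of the 3 genes with the widest spread over the 12 arrays are shown because they differ in CG content, the letters on which these enzymes act. Each run holds 300 bases of the RefSeq annotation of build GRCm38.p6, 250 before and 50 after a transcription start, read 5′ to 3′ on the gene's strand, with every CG in capitals. The Dnmt3b window lies at chr2:153649199-153649498 on the plus strand, the most upstream of 3 Dnmt3l windows at chr10:78042037-78042336 on the plus strand, and the Tet1 window at chr10:62887275-62887574 on the minus strand.
Dnmt3b: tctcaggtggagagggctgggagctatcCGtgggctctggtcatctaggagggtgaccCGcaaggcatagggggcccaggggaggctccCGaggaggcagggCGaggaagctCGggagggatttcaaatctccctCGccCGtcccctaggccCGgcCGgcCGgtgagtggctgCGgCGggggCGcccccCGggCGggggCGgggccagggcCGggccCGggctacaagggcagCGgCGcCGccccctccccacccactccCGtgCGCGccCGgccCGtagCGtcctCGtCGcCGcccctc
Dnmt3l: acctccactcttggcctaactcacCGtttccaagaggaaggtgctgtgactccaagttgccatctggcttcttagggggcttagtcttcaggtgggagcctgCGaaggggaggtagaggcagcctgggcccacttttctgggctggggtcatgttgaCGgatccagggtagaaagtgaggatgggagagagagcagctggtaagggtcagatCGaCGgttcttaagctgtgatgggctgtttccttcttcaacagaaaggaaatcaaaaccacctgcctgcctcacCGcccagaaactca
Tet1: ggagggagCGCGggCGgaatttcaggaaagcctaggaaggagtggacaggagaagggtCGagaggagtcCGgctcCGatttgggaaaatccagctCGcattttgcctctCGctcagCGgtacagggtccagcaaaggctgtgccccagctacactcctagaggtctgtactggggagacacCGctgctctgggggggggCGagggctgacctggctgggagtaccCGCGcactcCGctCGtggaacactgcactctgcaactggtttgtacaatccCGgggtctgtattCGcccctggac

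The Dnmt3b window held 30 CG dinucleotides, more than 88.3% of the 32851 promoter windows in the table, and the Tet1 window held 17. The 3 Dnmt3l windows held 6, 4 and 3, against a median of 7 over all windows. Of the other genes, Tet2 had 57 CG in its window and Tet3 had 22. The octamer ATGCAAAT, searched on both strands, was in none of the 16 windows of the 9 genes and in 1.7% of all windows. These are descriptions of sequence, and no methylation was measured in this series.

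The targeted genes and the whole arrays were examined first. Prmt1 read 7.59 to 7.95 in siPRMT1 and 8.74 to 8.87 in siSCR, on the deposited log2 scale. In siPRMT8 Prmt1 rose by 0.43 against siSCR (adjusted p = 0.00625). Prmt8 read 7.37 to 7.41 in D3, 6.60 to 7.18 in siSCR, 6.35 to 6.89 in siPRMT1 and 6.17 to 6.44 in siPRMT8, so siPRMT1 overlapped both siSCR and siPRMT8. Prmt8 fell by 0.61 in siPRMT8 against siSCR (adjusted p = 0.0171), and in siPRMT1 it fell by 0.75 against D3 (adjusted p = 0.00488). Its difference of siPRMT1 over siPRMT8, 0.29, did not pass (adjusted p = 0.489). On the first principal component, which held 61.4% of the variance, siSCR replicate 1 lay at 0.10, between the other controls (-26.2 to -21.6) and the knockdown arrays (13.6 to 25.7). The neuronal label was checked on 16 pan-neuronal markers, all of which were above the dimmest 25%. Their mean log2 level was 9.47 to 9.59 in D3, 9.52 and 9.47 in siSCR replicates 2 and 3, 8.48 in siSCR replicate 1, 8.18 to 8.40 in siPRMT1 and 8.32 to 8.54 in siPRMT8. All 21 pluripotency genes examined were also above that limit in these cultures. Because whole cultures were read, fewer cells of a type and less RNA per cell cannot be told apart in any value below.

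Dnmt3b was the only gene of the set called higher in both knockdown lines against siSCR. In siPRMT1 against siSCR 2 of the 8 genes were called, Dnmt3b and Uhrf1, both higher (18.7% of all genes tested were called, 7.18% as higher). A call is an adjusted p under 0.05 in limma over all genes tested. In siPRMT8 against siSCR 3 of 8 were called, Dnmt3b higher and Dnmt3l and Tet2 lower (23.8% of all genes were called, 10.7% as higher and 13.2% as lower). The groups did not overlap for 2 of the 8 genes in siPRMT1 (30.0% of all genes) and for 4 of 8 in siPRMT8 (41.8%). With 8 genes, these counts lie near what the shares of all genes give, so nothing is read from them about the set, and the results rest on the single genes. The median log2 difference of the 8 genes was -0.038 in siPRMT1 and -0.079 in siPRMT8, beside 0.036 and 0.012 for all genes tested. Both comparisons share the siSCR arrays.

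**Figure D1:**
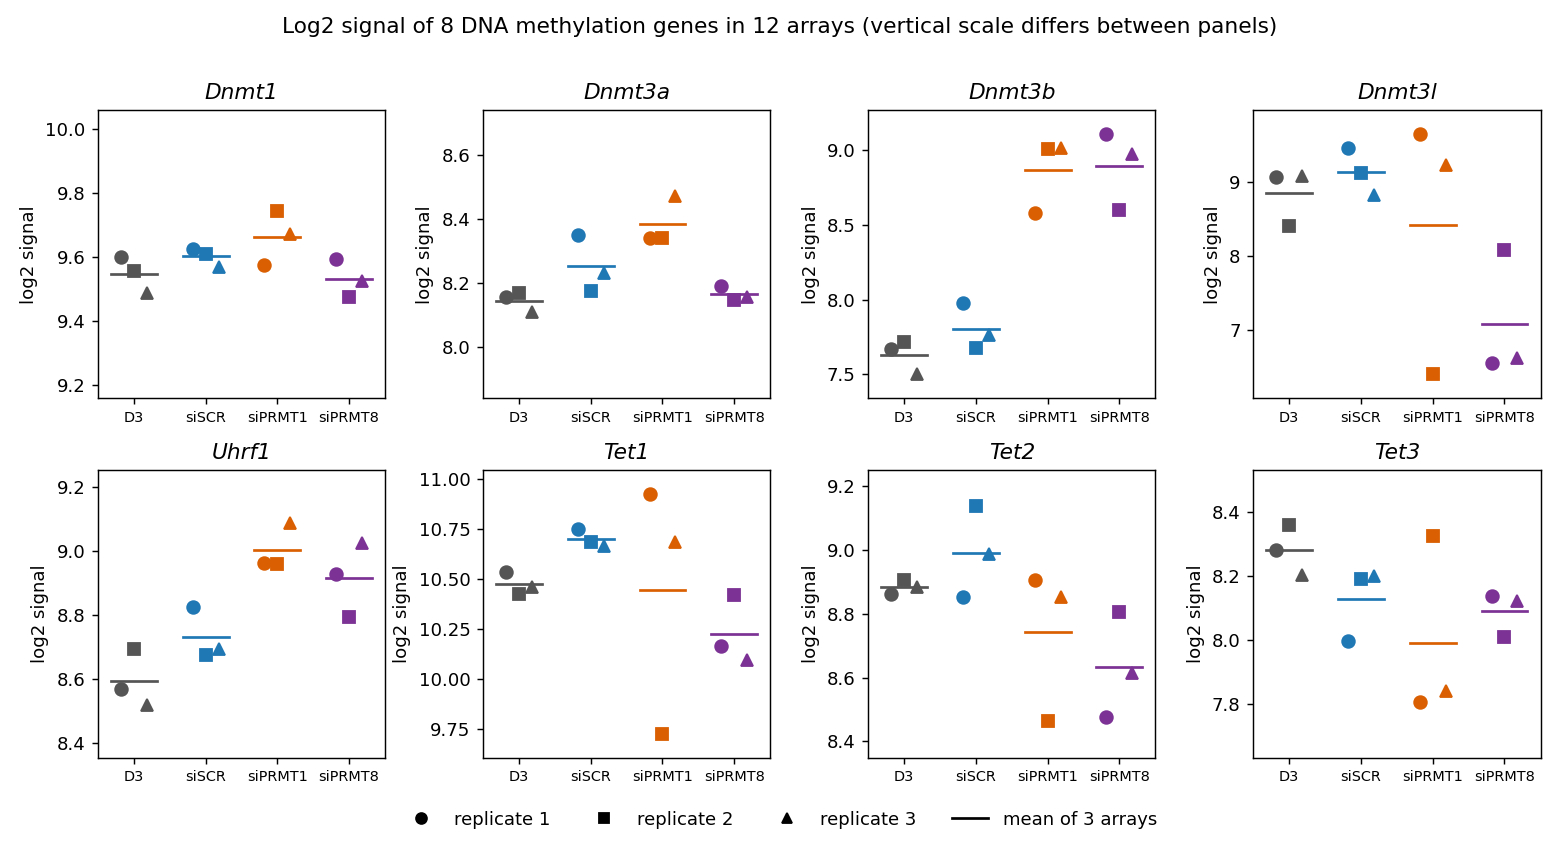
Log2 signal (vertical axis, scale differs between panels) of the 8 genes by group (horizontal axis), with 1 point per array, the point shape giving the replicate number and the line the mean of 3 arrays. Dnmt3b is above 8.5 in all 6 knockdown arrays and below 8.0 in all 6 control arrays, whereas Dnmt3l spans 6.40 to 9.65 within siPRMT1.

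Among the genes of maintenance methylation, Uhrf1 was called higher in siPRMT1 against both controls and in siPRMT8 against D3, and no comparison of Dnmt1 passed. Dnmt1, the maintenance methyltransferase, gave 9.60, 9.56 and 9.49 in the D3 cultures, 9.62, 9.61 and 9.57 with the scrambled sequence, 9.57, 9.74 and 9.67 for siPRMT1 and 9.59, 9.47 and 9.53 for siPRMT8. The groups overlapped in every comparison. Its log2 difference from siSCR was 0.062 in siPRMT1 (95% confidence interval -0.075 to 0.20, adjusted p = 0.515) and -0.071 in siPRMT8 (-0.21 to 0.065, adjusted p = 0.450). Neither interval reaches past -0.21 on the lower side or 0.20 on the upper. Its range over the 12 arrays, 0.27, was smaller than the median of 0.47 for all genes tested.

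Uhrf1, which recognises hemimethylated CG sites and recruits Dnmt1, gave 8.57, 8.69 and 8.52 in the D3 cultures, and 8.82, 8.68 and 8.69 with the scrambled sequence. The siPRMT1 cultures gave 8.96, 8.96 and 9.09, those of siPRMT8 8.93, 8.80 and 9.02. All siPRMT1 arrays lay above all control arrays, while siPRMT8 replicate 2 lay just below siSCR replicate 1. In siPRMT1 Uhrf1 rose by 0.27 against siSCR (SE 0.077, 1.21-fold, adjusted p = 0.0305) and by 0.41 against D3 (SE 0.077, adjusted p = 0.00291). In siPRMT8 the difference was 0.19 against siSCR, which did not pass (SE 0.077, adjusted p = 0.104), and it rose by 0.32 against D3 (adjusted p = 0.00982). The call in siPRMT1 against siSCR was lost without siSCR replicate 2 (0.25, adjusted p = 0.112), without siSCR replicate 3 (0.25, adjusted p = 0.106), without siPRMT1 replicate 3 (0.23, adjusted p = 0.109), in the fit of these groups alone (0.27, adjusted p = 0.107) and with the replicate block (0.27, adjusted p = 0.0513). It held in 9 of 14 alternatives, with adjusted p from 0.00193 to 0.112.

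The de novo methyltransferases differed from each other. Dnmt3b gave 7.67, 7.71 and 7.50 in the D3 cultures, and 7.98, 7.67 and 7.77 with the scrambled sequence. The siPRMT1 cultures gave 8.58, 9.01 and 9.01, those of siPRMT8 9.11, 8.60 and 8.98. The lowest knockdown array lay above the highest control array, and the 2 control groups overlapped each other, as did the 2 knockdown lines. Dnmt3b rose by 1.06 in siPRMT1 against siSCR (SE 0.146, 2.09-fold, adjusted p = 0.00122) and by 1.09 in siPRMT8 (SE 0.146, 2.13-fold, adjusted p = 0.00106). Against D3 it rose by 1.24 and 1.27 (adjusted p = 0.000354 and 0.000429). The call held in all 14 alternatives run for each knockdown against siSCR, with differences of 0.99 to 1.24 in siPRMT1 (adjusted p at most 0.0225) and 0.98 to 1.27 in siPRMT8 (adjusted p at most 0.00753). The direct difference between the knockdown lines was -0.028 (95% confidence interval -0.35 to 0.29, adjusted p = 0.958).

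Lower neuronal and higher cell cycle levels moved with Dnmt3b between the groups. Against siSCR 11.6% of all genes tested fell and 7.18% rose in siPRMT1, and 13.2% fell and 10.7% rose in siPRMT8. Of the 16 pan-neuronal markers 12 fell in siPRMT1 and 10 fell and 1 rose in siPRMT8 against siSCR. The 10 in siPRMT8 were 6 without siSCR replicate 3, its single riser, the neurofilament gene Nefm (1.08, SE 0.268, adjusted p = 0.0147), was not called without siPRMT8 replicate 3, and 1 marker rose in siPRMT1 without siPRMT1 replicate 1. The 12 in siPRMT1 were 3 in the fit of these groups alone. Of 25 S-phase and mitosis genes 10 rose and 0 fell in each knockdown line, which for siPRMT1 were 20 without siPRMT1 replicate 2, 5 without siPRMT1 replicate 3, 4 and 3 without siSCR replicates 2 and 3, and 0 in the fit of these groups alone, and for siPRMT8 were 17 without siSCR replicate 1. The mean of these 25 genes was 9.18 to 9.24 in D3, 9.20 to 9.40 in siSCR, 9.45 to 9.61 in siPRMT1 and 9.53 to 9.57 in siPRMT8. In siSCR replicate 1 the neuronal mean of 8.48 lay within the range of the knockdown arrays (8.18 to 8.54), while its Dnmt3b value of 7.98 was below all of theirs (8.58 to 9.11). Among the control arrays siSCR replicate 1 had the highest Dnmt3b value, the highest cell cycle mean (9.40) and the lowest neuronal mean. Within the knockdown arrays Dnmt3b was lowest in siPRMT1 replicate 1, which had the highest cell cycle mean. These values of single arrays are descriptions, and the part of the neuronal and cell cycle levels in the Dnmt3b result was not tested.

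Dnmt3a, the de novo enzyme that predominates in differentiated neural cells, gave 8.16, 8.17 and 8.11 in the D3 cultures, 8.35, 8.18 and 8.23 with the scrambled sequence, 8.34, 8.34 and 8.47 for siPRMT1 and 8.19, 8.15 and 8.16 for siPRMT8. All siPRMT1 arrays lay above all siPRMT8 and all D3 arrays, and overlapped siSCR through its replicate 1. Dnmt3a rose by 0.24 in siPRMT1 against D3 (SE 0.063, 1.18-fold, adjusted p = 0.0153). Against siSCR the difference was 0.13 (SE 0.063, adjusted p = 0.166). In siPRMT8 it lay at 0.022 from D3 (adjusted p = 0.825) and -0.088 from siSCR (adjusted p = 0.344). The direct difference of siPRMT1 over siPRMT8 was 0.22 (95% confidence interval 0.082 to 0.36) and did not pass over all genes (adjusted p = 0.211). It passed in 2 of 13 alternatives, with array weights (0.28, adjusted p = 0.00928) and when siPRMT1 replicate 2 and siSCR replicate 1 were omitted together (0.24, adjusted p = 0.0235), and adjusted p ranged from 0.00928 to 0.642. The difference of siPRMT1 from siSCR passed in 3 of 14 alternatives, namely these (0.22 and 0.20, adjusted p = 0.00692 and 0.0324) and D3 as control, with adjusted p from 0.00692 to 0.444.

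Dnmt3l had the widest spread of the set and was low in some cultures of the knockdown lines and not in others. It gave 9.07, 8.40 and 9.08 in the D3 cultures, and 9.46, 9.13 and 8.83 with the scrambled sequence. The siPRMT1 cultures gave 9.65, 6.40 and 9.23, so replicate 2 was about 3 log2 units below its companions, which lay at or above the middle of the controls. Those of siPRMT8 gave 6.55, 8.08 and 6.61, with replicate 2 above its companions and below every control array. The range of 3.25 within siPRMT1 was the largest of all 14953 genes tested, and 1 gene exceeded its range of 1.53 within siPRMT8, where the median gene had a range of 0.15. The spread was already wide in D3, where the range was 0.68, with 16 genes above it.

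In siPRMT8 against siSCR Dnmt3l fell by 2.06 (SE 0.689, 4.18-fold, adjusted p = 0.0487), with groups that did not overlap. Against D3 the difference was -1.77 (SE 0.689, adjusted p = 0.0775). The SE of 0.689 comes from a spread shared by all 4 groups. Standard deviations of Dnmt3l were 0.39 in D3, 0.32 in siSCR, 0.87 in siPRMT8 and 1.77 in siPRMT1. The call against siSCR held in 5 of 14 alternatives, with adjusted p from 0.00216 to 0.156 and differences of -2.56 to -1.77. It held in the fit of these groups alone (0.0147), with array weights (0.00760) and with the mean of probe sets (0.0486). It also held without siPRMT8 replicate 2 (0.0348) and when siSCR replicate 1 and siPRMT1 replicate 2 were omitted together (0.00216). It was lost without any 1 of the siSCR replicates 1, 2 or 3 (adjusted p = 0.10, 0.11 and 0.092) and without siPRMT8 replicate 1 or 3 (0.147 and 0.156). It was also lost with no filter on dim genes (0.0588), with quantile normalisation (0.0504) and with the replicate block (0.0640). In siPRMT1 the difference from siSCR was -0.72 (SE 0.689, adjusted p = 0.492), and 0.30 without siPRMT1 replicate 2 (adjusted p = 0.637, over the alternatives 0.193 to 0.796). The direct difference of siPRMT1 over siPRMT8 was 1.35 (SE 0.689, adjusted p = 0.462), and without siPRMT1 replicate 2 it was 2.36 and passed (adjusted p = 0.0135).

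**Figure D2:**
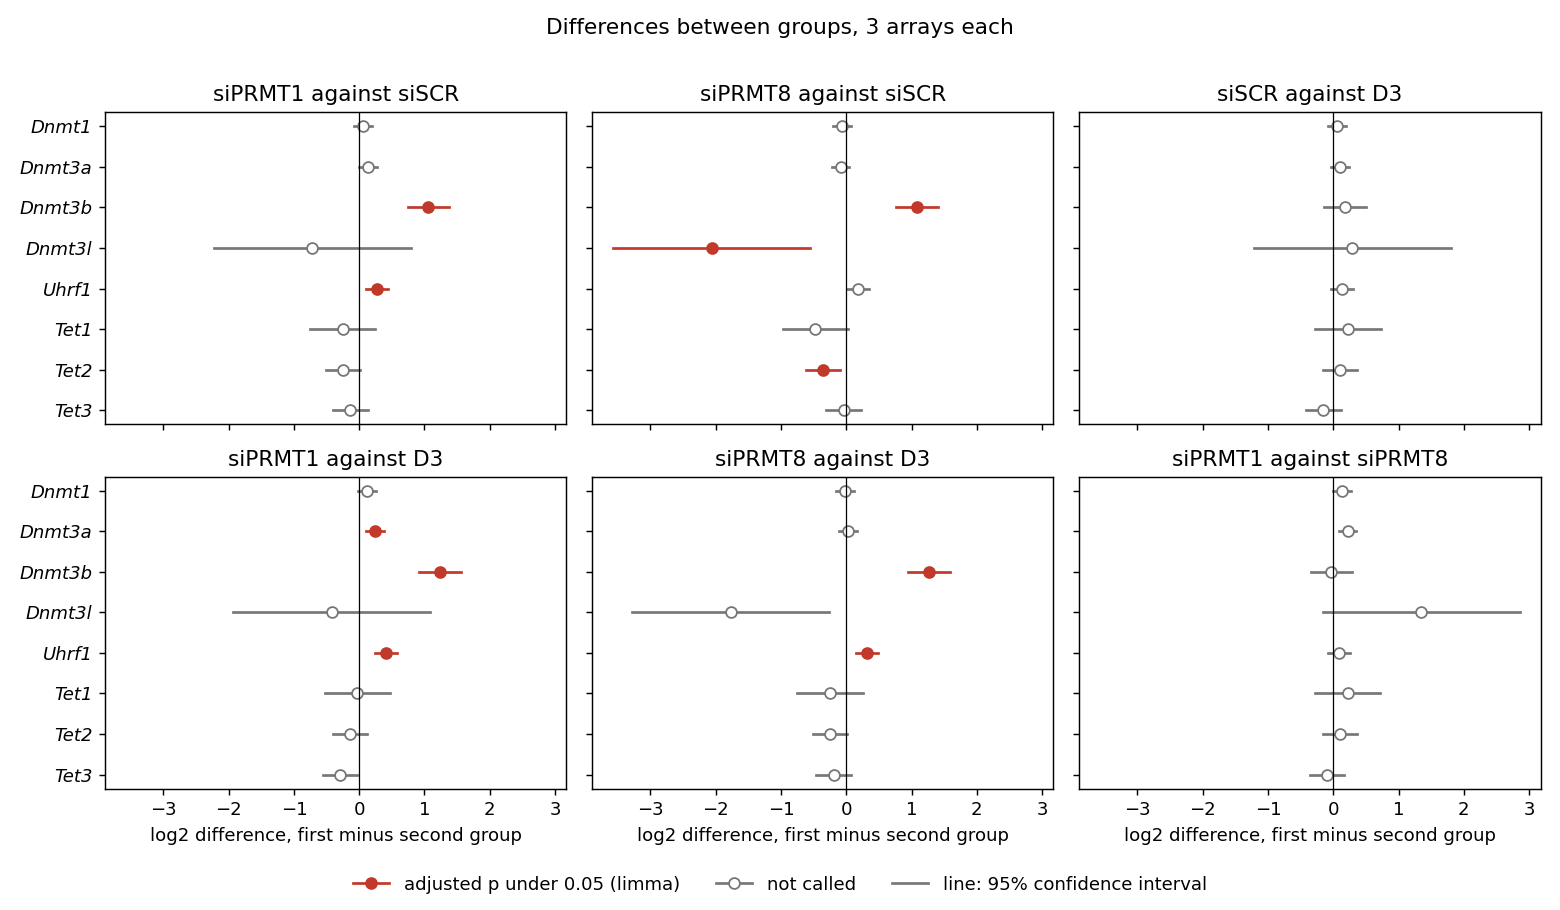
Log2 differences (horizontal axis, first minus second group) of the 8 genes (vertical axis) in 6 comparisons of 3 arrays against 3, with 95% confidence intervals from limma, filled red where the adjusted p was under 0.05. Dnmt3b is the only gene called in all 4 comparisons of a knockdown line with a control, and Dnmt3l has the widest interval in every panel.

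The dioxygenase genes differed from each other in pattern. Tet1, a Tet enzyme of embryonic stem cells, gave 10.53, 10.43 and 10.46 in the D3 cultures, and 10.75, 10.69 and 10.67 with the scrambled sequence. The siPRMT1 cultures gave 10.93, 9.73 and 10.69, those of siPRMT8 10.16, 10.42 and 10.09. As for Dnmt3l, siPRMT1 replicate 2 was lowest of all 12 arrays and siPRMT8 replicates 1 and 3 came next, while siPRMT1 replicates 1 and 3 were at or above the siSCR level. The other 2 Tet1 probe sets were also lowest in siPRMT1 replicate 2, at 8.94 and 8.52. No comparison of Tet1 passed. The difference from siSCR was -0.25 in siPRMT1 (SE 0.229, adjusted p = 0.462) and -0.47 in siPRMT8 (SE 0.229, adjusted p = 0.156), where the groups did not overlap. The latter passed in 3 of 14 alternatives (adjusted p 0.00360 to 0.456), among them the fit of these groups alone (adjusted p = 0.0164). Without siPRMT1 replicate 2 Tet1 was 0.58 higher in siPRMT1 than in siPRMT8 (adjusted p = 0.0136), in place of 0.22 (adjusted p = 0.742).

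Tet2, which lacks the CXXC DNA-binding domain of its relatives, gave 8.86, 8.91 and 8.88 in the D3 cultures, and 8.85, 9.13 and 8.99 with the scrambled sequence. The siPRMT1 cultures gave 8.91, 8.46 and 8.85, those of siPRMT8 8.48, 8.80 and 8.62. All siPRMT8 arrays lay below all control arrays, and the lowest value was again that of siPRMT1 replicate 2. Tet2 fell by 0.36 in siPRMT8 against siSCR (SE 0.120, 1.28-fold, adjusted p = 0.0482) and lay at -0.25 against D3 (SE 0.120, adjusted p = 0.142). The call held in 6 of 14 alternatives, with adjusted p from 0.00239 to 0.169. It was lost without siSCR replicate 2 (0.169) or 3 (0.113), without siPRMT8 replicate 1 (0.167) or 3 (0.127), in the fit of these groups alone (0.0512), with no filter on dim genes (0.0623) and with the replicate block (0.0738). In siPRMT1 the difference from siSCR was -0.25 (adjusted p = 0.167), and -0.11 without siPRMT1 replicate 2 (adjusted p = 0.454, over the alternatives 0.0951 to 0.454).

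Tet3, the Tet enzyme most associated with neurons and the oocyte, gave 8.28, 8.36 and 8.21 in the D3 cultures, and 8.00, 8.19 and 8.20 with the scrambled sequence. The siPRMT1 cultures gave 7.81, 8.33 and 7.84, those of siPRMT8 8.14, 8.01 and 8.12. Here siPRMT1 replicate 2 was high and the other siPRMT1 arrays were the lowest of all. The second Tet3 probe set did not share this feature to the same degree, with 7.66, 7.85 and 7.59 in siPRMT1 and 7.76, 8.05 and 7.96 in siSCR. The difference from siSCR was -0.14 in siPRMT1 (SE 0.121, adjusted p = 0.451) and -0.039 in siPRMT8 (SE 0.121, adjusted p = 0.855). Without siPRMT1 replicate 2 the Tet3 difference from siSCR was -0.31 (adjusted p = 0.0196, over the alternatives 0.00196 to 0.823).

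The genes of the set therefore fell into different patterns across the 12 arrays, which share lines and are not 12 independent conditions. After the mean of each group was taken out, Dnmt3l and Tet1 had a Pearson r of 0.96, Dnmt3l and Tet2 of 0.80, and Dnmt3l and Tet3 of -0.95. Dnmt3l and Dnmt3b had -0.57. For Dnmt3l, siPRMT1 replicate 2 and siPRMT8 replicate 2 departed most from the other arrays of their groups, so these cultures weigh most in such values, which are descriptions. Dnmt3b and Uhrf1 had an r of 0.92 over the 12 arrays and 0.71 with group means removed.

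**Figure D3:**
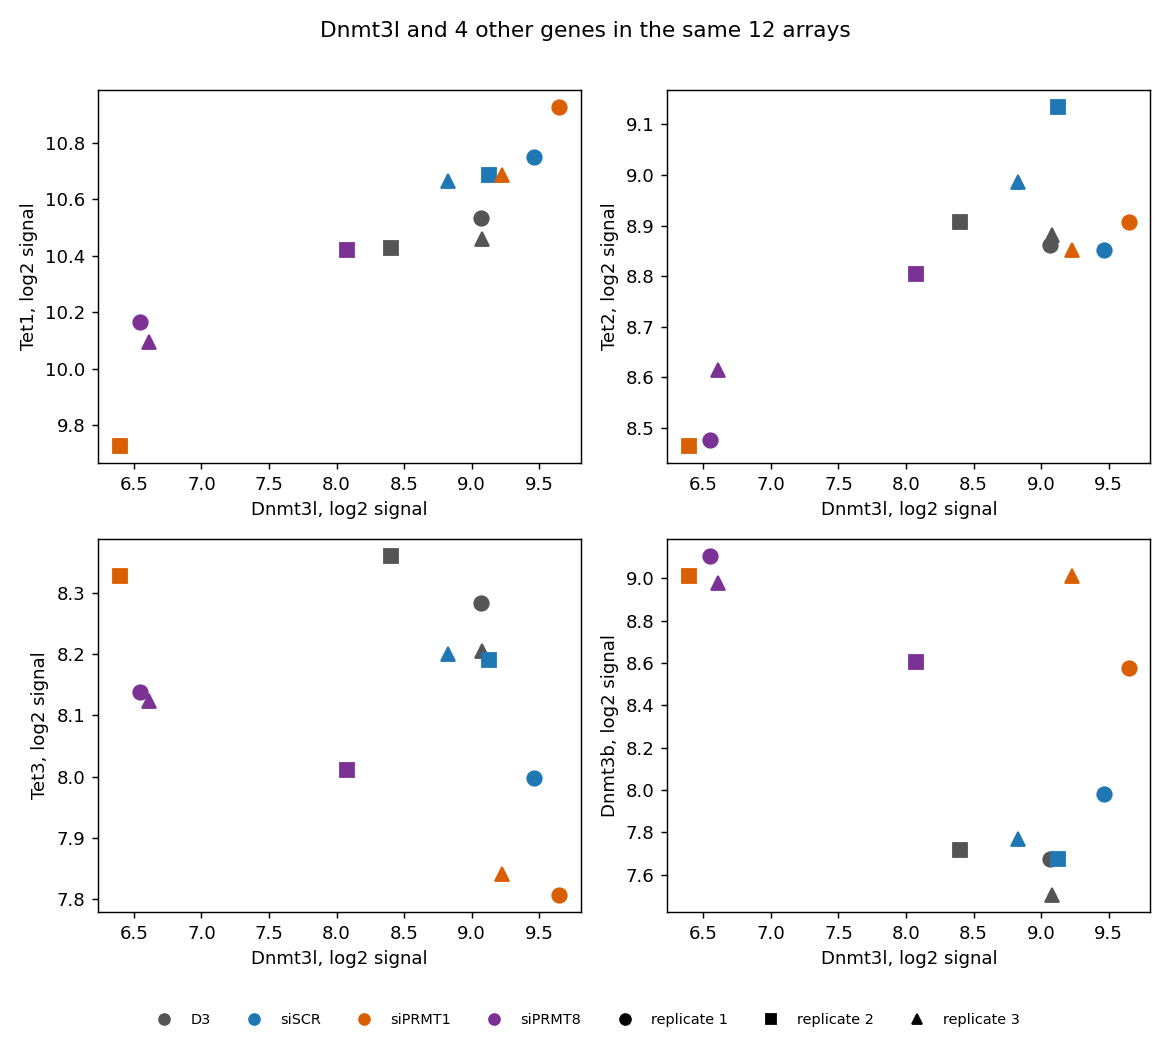
Log2 signal of Dnmt3l (horizontal axes) against Tet1, Tet2, Tet3 and Dnmt3b (vertical axes) in the same 12 arrays, coloured by group with the point shape giving the replicate number. Tet1 and Tet2 are lowest in the 3 arrays with Dnmt3l below 7, whereas Dnmt3b is above 8.5 in knockdown arrays at both ends of the Dnmt3l scale.

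No gene of the set was called between the 2 control groups. In siSCR against D3 limma called 0 of the 8 genes, 0 had an unadjusted p under 0.05, and 0.154% of all genes tested (23) were called, or 15 with the replicate block. The groups did not overlap for 3 of the 8 genes, Dnmt3a and Tet1 (higher in siSCR) and Tet3 (lower), where 20.3% of all genes did not overlap. Their log2 differences were 0.11, 0.23 and -0.15, with adjusted p of 0.618, 0.810 and 0.738. None was called between the knockdown lines. In siPRMT1 against siPRMT8 limma called 0 of the 8 genes, 1 (Dnmt3a) had an unadjusted p under 0.05, and 0.154% of all genes (23) were called. The groups did not overlap for 1 of the 8, again Dnmt3a (15.8% of all genes). Without siPRMT1 replicate 2 the count was 2 (Dnmt3l and Tet1), beside 862 of all genes. Against D3 3 of the 8 genes rose in siPRMT1 (26.4% of all genes called, 11.7% as higher) and 2 in siPRMT8 (27.7%, 12.5% as higher), with 0 lower in both. Groups did not overlap for 3 of the 8 genes in siPRMT1 (44.2% of all genes) and for 6 in siPRMT8 (52.6%).

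Genes of the set, small RNAs, predicted or unnamed genes (such as Gm and Rik symbols) and any symbol beginning with Rn were left out of a search for similar profiles. For the 3 genes with the widest range, the 4 remaining tested genes with the most similar profile over the 12 arrays were listed. For Dnmt3l these were Scml2 (Pearson r 0.991), Usp26 (0.986), Cdyl2 (0.986) and Pecam1 (0.981), with r of 0.979 to 0.996 after group means were removed. Scml2, a Polycomb-related gene of the male germline, gave 8.48, 6.52 and 8.28 for siPRMT1 and 6.73, 7.55 and 6.64 for siPRMT8. For Tet1 they were Rps23rg1 (0.984), the histone acetyltransferase gene Kat6b (0.983), the germline transposon-silencing gene Mael (0.981) and Cox6b2 (0.980). Mael gave 9.50, 6.92 and 9.22 for siPRMT1 and 7.61, 8.45 and 7.80 for siPRMT8. For Dnmt3b they were the linker histone gene H1f1 (0.985), Rpf1 (0.981), Clns1a (0.980) and Cdc37 (0.978), with lower r of 0.739 to 0.871 after group means were removed. H1f1 read 9.94 to 10.25 in the control arrays and 10.59 to 10.82 in the knockdown arrays.

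Of 39 tested partners of these enzymes (readers of methylated CG, repair enzymes of modified cytosine and suppliers of cofactors), 7 rose and 3 fell in siPRMT1 and 6 rose and 2 fell in siPRMT8 against siSCR, with medians of 0.055 and 0.025. Of all genes tested, 7.18% rose and 11.6% fell in siPRMT1, and 10.7% rose and 13.2% fell in siPRMT8. The largest increases were those of Cdca7l and Cdca7, members of a family of zinc-finger proteins of which Cdca7 activates the chromatin remodeller Hells. Cdca7 read 9.35 to 9.67 in the control arrays and 10.02 to 10.12 in the knockdown arrays, which did not overlap. It rose by 0.56 in siPRMT1 (SE 0.075, adjusted p = 0.00108), and in siPRMT8 the increase was 0.50 (adjusted p = 0.00150). Cdca7l rose by 0.56 (adjusted p = 0.00231) and 0.64 (adjusted p = 0.00121). Zbtb4, a reader of methylated CG, had log2 differences of -0.33 in siPRMT1 and -0.42 in siPRMT8 (adjusted p = 0.00539 and 0.00162). Cxxc4, a CXXC protein that binds unmethylated CG and lies beside Tet2 in the genome, had -0.32 and -0.29 (adjusted p = 0.0393 and 0.0483). The 7 higher genes in siPRMT1 were 4 without siPRMT1 replicate 1 or 3, 2 without siSCR replicate 2, 3 without siSCR replicate 3 and 2 in the fit of these groups alone. The 3 lower ones were 1 without siPRMT1 replicate 3 or siSCR replicate 2 or 3, and the 2 lower ones in siPRMT8 were 1 without siPRMT8 replicate 1 or 3 or siSCR replicate 2 or 3.

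Germline genes whose promoters are known to be silenced by DNA methylation had, in their mean, the lowest values in the same arrays as Dnmt3l. This was not particular to them. In siPRMT1 replicate 2 and siPRMT8 replicates 1 and 3 the mean of 21 imprinted genes was also lowest (9.05 to 9.11, others from 9.15). The mean of 8 germ cell markers was likewise lowest there (6.31 to 6.49, others from 6.52). Of the 20 listed, 19 were on the array and 12 passed the filter on dim genes. Dazl, an RNA-binding protein of germ cells, gave 7.61, 6.84 and 7.61 in the D3 cultures, 8.06, 7.94 and 7.57 with the scrambled sequence, 7.83, 5.13 and 7.32 for siPRMT1 and 5.33, 6.36 and 5.46 for siPRMT8. The low values were those of siPRMT1 replicate 2 and siPRMT8 replicates 1 and 3, as for Dnmt3l. Not every listed gene followed this, and Tdrd1, left out as dim, was highest in siPRMT8 replicate 1 (5.83). The mean of the 19 genes was 5.51 in siPRMT1 replicate 2, 5.67 and 5.75 in siPRMT8 replicates 1 and 3, and 6.02 to 6.49 in the other arrays, and 10 of the 19 genes had their lowest value in siPRMT1 replicate 2. That array was also lowest for 8 of the 39 partners, 2 of the 25 S-phase and mitosis genes and 4 of the 21 imprinted genes. It was lowest for 15 of the 21 pluripotency genes, 5 of the 8 mesenchymal and 3 of the 8 astrocyte markers. For the other lists this held for 2 of 16 pan-neuronal, 2 of 8 germ cell, 1 of 10 neural progenitor and 1 of 8 endoderm markers. The share of all genes tested that were lowest there was not computed. In siPRMT8 against siSCR 13.2% of all genes tested were called lower. Of the 12 tested germline genes 3 fell there, led by Dazl (-2.14, SE 0.552, adjusted p = 0.0170) and the meiotic gene Hormad1 (-0.80, SE 0.260, adjusted p = 0.0442). These 3 were 0 without siPRMT8 replicate 1 or 3 or siSCR replicate 2, 1 without siSCR replicate 1, 1 against D3 and 7 in the fit of these groups alone. In siPRMT1 limma called 0 higher and 0 lower, and 3 rose without siPRMT1 replicate 2.

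**Figure D4:**
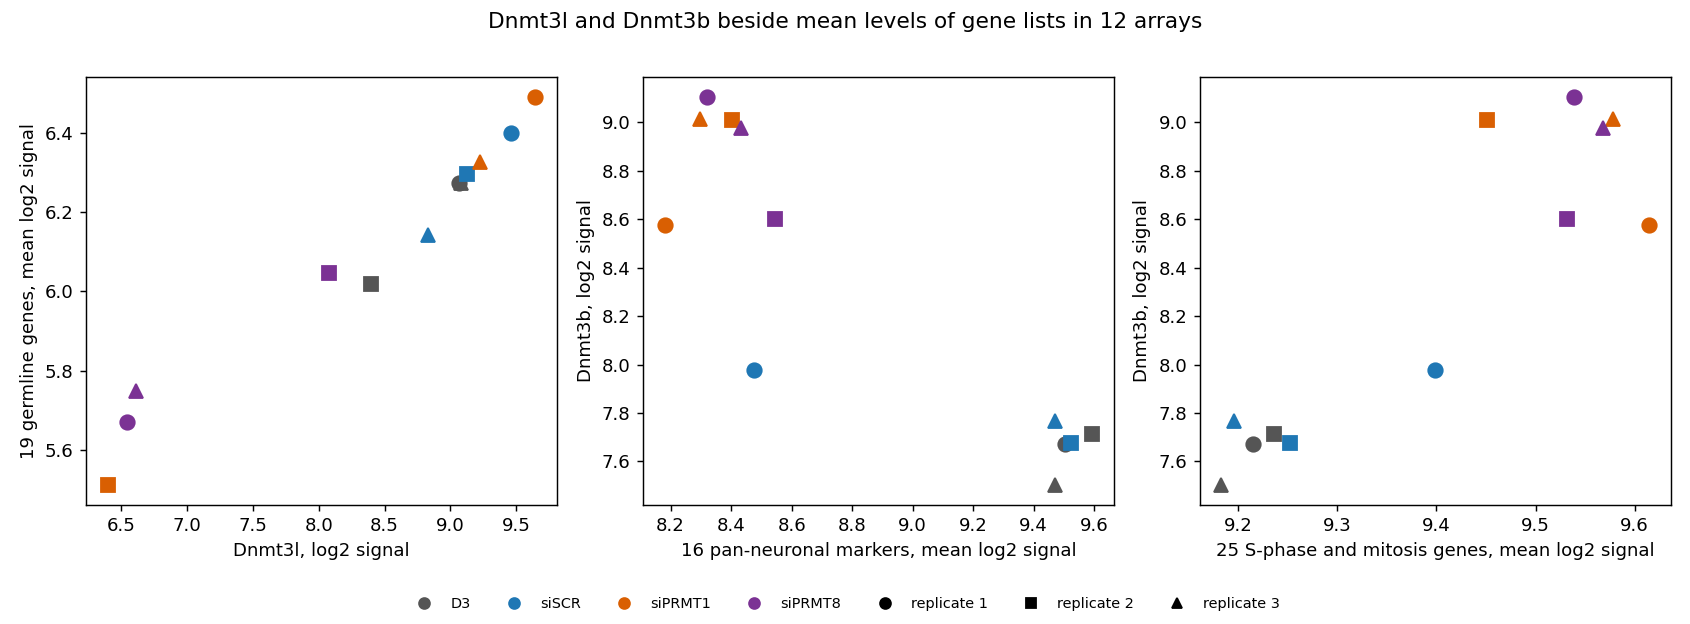
Left, Dnmt3l log2 signal (horizontal) against the mean log2 signal of 19 germline genes (vertical), and centre and right, the mean log2 signal of 16 pan-neuronal or 25 S-phase and mitosis genes (horizontal) against Dnmt3b (vertical), with 1 point per array coloured by group. The germline mean is between 5.51 and 5.75 in the 3 arrays with Dnmt3l below 7, and siSCR replicate 1 pairs a neuronal mean of 8.48 with a Dnmt3b value of 7.98. That Dnmt3b value is the highest of the control arrays.

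Imprinted genes, whose allelic expression depends on inherited methylation, were called in both directions. Of 21 tested, 2 rose and 6 fell in siPRMT1 and 3 rose and 7 fell in siPRMT8 against siSCR, with medians of -0.036 and -0.14. Beside the shares of all genes (7.18% higher and 11.6% lower in siPRMT1, 10.7% and 13.2% in siPRMT8), the higher counts lay near the background. The growth factor receptor adaptor Grb10 rose by 0.53 and 0.55 in siPRMT1 and siPRMT8 (SE 0.073, adjusted p = 0.00112 and 0.000973). The zinc-finger gene Peg3 fell by 0.75 and 0.86 (SE 0.178, adjusted p = 0.0140 and 0.00621), and Nnat, a small membrane protein of neurons, fell by 0.74 in siPRMT1 (adjusted p = 0.0157). Several of these genes are expressed in neurons, whose markers were lower in the same arrays, and the part of this in the result was not tested. The 6 lower genes in siPRMT1 were 2 without siSCR replicate 2 or 3 and 1 in the fit of these groups alone. The 2 higher ones were 1 without siSCR replicate 2 or 3 or siPRMT1 replicate 1 or 3. The 7 lower ones in siPRMT8 were 2 without siPRMT8 replicate 1 or 3 or siSCR replicate 2, and 3 without siSCR replicate 3.

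Markers of other cell types were read beside these genes. The mean of 21 pluripotency genes was 8.92 to 9.04 in D3, 9.15 to 9.43 in siSCR, 9.54, 8.73 and 9.35 in siPRMT1, and 8.99, 9.19 and 8.99 in siPRMT8, and 15 of the 21 were lowest in siPRMT1 replicate 2. The share of all genes tested that were lowest in that array was not computed. Among the pluripotency genes 2 rose in siPRMT1, Lin28a (1.09, SE 0.192, adjusted p = 0.00367) and the ubiquitin ligase gene Trim71 (0.47, adjusted p = 0.00931), and 1 in siPRMT8, Lin28a (0.88, adjusted p = 0.00816). These counts lay near the shares of all genes called higher, 7.18% and 10.7%. The count was 5 in siPRMT1 without siPRMT1 replicate 2, and in siPRMT8 it was 2 without siSCR replicate 1, while 1 gene fell without siPRMT8 replicate 2. Lin28a, an RNA-binding protein that blocks let-7 maturation, was highest in siPRMT1 replicate 2 (8.68), the array in which Dnmt3l and Tet1 were lowest. Against siSCR 6 of 7 tested astrocyte markers fell in each knockdown line and 1 rose. Among all genes tested 11.6% fell and 7.18% rose in siPRMT1, and 13.2% fell and 10.7% rose in siPRMT8. The same shares stand beside the counts of progenitor, germ cell and endoderm markers below. The mean of 8 astrocyte markers was 7.87 to 8.25 in the controls and 7.08 to 7.49 in the knockdown arrays, and that of 8 mesenchymal markers was 7.30 to 7.43 and 6.65 to 7.18. The mean of 10 neural progenitor markers was 9.44 to 9.51 in D3, 9.16 to 9.27 in siSCR, 9.03 to 9.41 in siPRMT1 and 9.35 to 9.47 in siPRMT8, so siPRMT8 lay above siSCR without overlap. Of these markers 5 rose and 1 fell in siPRMT8 against siSCR, and the 5 were 2 without siSCR replicate 1, 2 or 3 or siPRMT8 replicate 1 or 3. The mean of 8 germ cell markers was 6.31 to 6.52 in siPRMT8, below siSCR (6.65 to 6.90) and D3 (6.58 to 6.70), while siPRMT1 (6.49 to 6.77) overlapped both. In siPRMT8 3 of the 7 tested germ cell markers fell against siSCR, which were 1 without siPRMT8 replicate 1 or 3. The mean of 8 endoderm markers was 7.21 to 7.26 in siPRMT1, above siSCR (7.03 to 7.13) and overlapping D3 (7.11 to 7.23), and 7.0 to 7.09 in siPRMT8. In siPRMT1 2 of the 6 tested endoderm markers rose against siSCR, which were 1 without siSCR replicate 3 and 0 in the fit of these groups alone. The part of these cell types in the results was not tested.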

How the data were processed

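RNA was measured with 1-colour whole-transcript arrays hybridised with biotin-labelled cDNA, per the labels. The authors' deposited values (35556 probe sets, 0.97 to 13.54) lie on a log2 scale, as judged from their range. Which background correction, summary and normalisation produced them is not given in the sources used here. Medians of the arrays lay within 0.023 of each other and were left as they were. No detection calls were used, so levels of different genes are not compared, and the number of arrays limits the precision.

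Probe sets were named through the platform annotation (21789 with 1 symbol, 1621 with several, 12146 with none), and 21698 symbols were matched by gene ID to RefSeq GRCm38.p6. Genes with a mean below 5.43 were left out. The other 14953 were fitted with limma 3.58.1 in R 4.3.3 as 4 group means (8 residual degrees of freedom), with Benjamini-Hochberg adjustment and moderated standard errors (SE). The fit was tested on simulated data in which each gene had the same spread in every group. That setting does not cover genes such as Dnmt3l, whose spread differed between groups.

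The genes and lists were chosen with earlier results of these data known. Named genes were the set, Prmt1 and Prmt8, up to 2 higher and 2 lower called members of each list, and the 4 most similar profiles of each of the 3 widest-ranging genes after the exclusions given above. Other genes are named as values only.

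Same-numbered arrays of D3 and siSCR deviated together (r of 0.161, 0.194 and 0.107 for the 3 numbers). Those of D3 and siPRMT1 gave 0.29, 0.27 and -0.035. Other pairs went the opposite way, with -0.42, -0.56 and 0.042 for siPRMT1 and siPRMT8, and -0.081, -0.23 and -0.25 for D3 and siPRMT8. Over all groups 8 of 18 such pairs had r above 0.1. The main fit paired no groups, and replicate number entered only as a block among the alternatives. Alternatives were D3 as control, quantile normalisation, no filter, the mean of a gene's probe sets, fits of 2 groups, the replicate block, array weights (gene-by-gene method) and leaving out each array. Omitting both siSCR replicate 1 and siPRMT1 replicate 2 was added after the data were seen.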

Additional observations from a re-analysis of the deposited data

How the results depend on the processing

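The number of genes of the set called in siPRMT1 against siSCR was 2. It was 1 in the 2-group fit and with the replicate block, 4 with array weights, 4 when siSCR replicate 1 and siPRMT1 replicate 2 were omitted together, and 1 to 3 when single arrays were left out. In siPRMT8 against siSCR it was 3, and 1 with no filter on dim genes and with the replicate block, 5 with those arrays omitted and 1 to 3 without single arrays. In siPRMT1 against siPRMT8 it was 0, and 3 with array weights, 4 with those arrays omitted and 0 to 2 without single arrays. In siSCR against D3 it was 0 in every alternative run, the replicate block included. The counts over all genes moved as well. For siPRMT1 against siSCR 2801 became 357 in the 2-group fit, 5785 with array weights, 5077 with those arrays omitted and 1317 to 3763 without single arrays. For siPRMT8 against siSCR 3565 became 5479 with array weights, 5710 with those arrays omitted and 1804 to 4107 without single arrays. For siPRMT1 against siPRMT8 23 became 14 with the replicate block, 2 in the 2-group fit, 1451 with array weights, 1901 with those arrays omitted and 2 to 862 without single arrays, and for siSCR against D3 23 became 15 with the replicate block, 9 in the 2-group fit, 223 with array weights, 152 with those arrays omitted and 2 to 21 without single arrays. Directions of the 8 genes turned in the following cases, each for a difference that did not pass. Dnmt3a in siPRMT8 against siSCR became 0.022 with D3 as control, and Tet3 there became 3.56e-05 with quantile normalisation and -0.10 to 0.0016 without single arrays. Dnmt3l in siPRMT1 against siSCR became 0.16 with array weights, 0.46 with those arrays omitted and -1.33 to 0.30 without single arrays. Tet1 there became 0.0023, 0.13 and -0.49 to 0.11. In siPRMT1 against siPRMT8 Dnmt3b became 0.077 with array weights and -0.17 to 0.12 without single arrays, and Tet1 lay at -0.020 to 0.58 without single arrays. The cause of these changes was not tested.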

Other observations

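Among the partners of these enzymes, 2 genes outside the naming rule, chosen after their values were seen, were also low in siPRMT1 replicate 2. Dppa3, a germ cell and oocyte protein that keeps Uhrf1 from the nucleus, gave 6.45, 6.29 and 6.47 in the D3 cultures, 6.83, 6.15 and 6.35 with the scrambled sequence, 6.71, 5.52 and 6.43 for siPRMT1 and 5.60, 6.03 and 5.63 for siPRMT8. Gadd45b, a stress-induced gene linked to DNA demethylation, gave 7.59, 6.88 and 7.58 in the D3 cultures, 7.80, 7.46 and 7.18 with the scrambled sequence, 7.70, 6.18 and 7.24 for siPRMT1 and 6.25, 6.72 and 6.58 for siPRMT8. For both genes siPRMT1 replicate 2 was the lowest of the 12 arrays, which held for 8 of the 39 partners. Other partners went the other way, and Cdca7l (8.77) and Mbd1 (8.13) were highest in that array. As Dppa3 and Gadd45b were chosen with their values known, nothing is read from their low values.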
